A study of Mus musculus with 12 samples.

Results

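The synaptic vesicle and release machinery genes are 37 genes whose proteins dock, prime, fuse and recycle neurotransmitter vesicles. Their chromatin accessibility was taken from every ATAC-seq peak whose deposited gene name was one of the 37. This gave 708 of 281974 peaks in all, made up of 452 of 107627 peaks in NeuN+ nuclei, 122 of 82577 in Olig2+ nuclei and 134 of 91770 in microglia. Peaks at most 1000 bp from the transcription start site (TSS) given in the files were called start-site peaks and all others distal.

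When an action potential opens calcium channels at a nerve terminal, calcium binds synaptotagmins on docked vesicles, and the SNARE proteins of vesicle and plasma membrane zip together and fuse the membranes. Complexins clamp and assist that step, while the active zone scaffolds and the Munc13 and RIM families hold vesicles near the channels and prime them. After fusion, NSF and its cofactor take the SNARE complexes apart, and dynamin, synaptojanin and amphiphysin retrieve the membrane. These genes are expressed mainly in neurons, and open chromatin at a start site or enhancer, which ATAC-seq reads as transposase cuts, is one of the features that accompany their transcription.

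The libraries came from forebrain of C57BL/6 mice aged 4 months that were either wild type (WT) or SgshKO, a knockout of the gene for the lysosomal enzyme N-sulfoglucosamine sulfohydrolase, which degrades heparan sulfate. The labels do not say how the allele was made, and they name no treatment. Neuronal nuclei were sorted as NEUN+ without PU.1 or OLIG2, oligodendrocyte-lineage nuclei as OLIG2+ without PU.1 or NEUN, both after light fixation, and microglia as live CD11b+, CD45low, CX3CR1+ cells. Each of the 6 groups held 2 libraries, 12 in all. Nothing in the labels says that the 2 libraries of a group came from separate animals, so p-values measure only the spread between these libraries, which may be technical.

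Library totals ran from 10771659 to 19555924 tags, with 17 to 39 reads in the median peak of each library. In NeuN+ nuclei 26.7 and 25.9% of WT tags but only 21.5 and 21.2% of SgshKO tags lay in peaks, and the median log2 change over all NeuN+ peaks was -0.23. Over peaks with at least 10 reads in the pair, the 2 NeuN+ libraries of a group differed by little more than counting noise. The chi-square per degree of freedom was 1.02 in WT and 1.02 in SgshKO, against 1.48 and 3.66 in microglia. At strong peaks, with at least 200 reads, it was 1.19 and 1.2 in NeuN+ nuclei and 1.98 and 8.94 in microglia. Start-site peaks of all 8 neuronal markers were present in NeuN+ nuclei, and none of 8 blood myeloid markers had one. Olig2+ nuclei had a start-site peak at all 8 oligodendrocyte-lineage markers and microglia at all 8 microglial markers.

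Promoter sequences are shown for members at both ends of the NeuN+ changes described below: Syt1 and Stx1a, whose start-site peaks fell to 50.5% and 50.0% of WT, Syn1, the 1 member window with a cyclic AMP response element, and Vamp1 and Sv2b, whose peaks rose. Each is the RefSeq window (GRCm38.p6) of 250 bases that end at the annotated start, written 5′ to 3′ on the gene's strand. Capitals mark the GC box GGGCGG or the cyclic AMP response element TGACGTCA on either strand. The windows lie at chr10:109010976-109011225 (minus), chr5:135023232-135023481 (plus), chrX:20920919-20921168 (minus), chr6:125215331-125215580 (plus) and chr7:75302610-75302859 (minus).
Syt1: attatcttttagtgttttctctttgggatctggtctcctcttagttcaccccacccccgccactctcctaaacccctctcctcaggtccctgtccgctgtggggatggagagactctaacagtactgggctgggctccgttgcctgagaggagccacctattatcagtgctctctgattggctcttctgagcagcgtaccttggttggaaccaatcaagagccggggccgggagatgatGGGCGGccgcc
Stx1a: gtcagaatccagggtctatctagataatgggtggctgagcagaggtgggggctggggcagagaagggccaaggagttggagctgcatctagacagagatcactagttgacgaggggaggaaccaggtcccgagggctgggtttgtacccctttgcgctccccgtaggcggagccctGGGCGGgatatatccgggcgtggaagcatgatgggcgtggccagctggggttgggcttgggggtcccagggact
Syn1: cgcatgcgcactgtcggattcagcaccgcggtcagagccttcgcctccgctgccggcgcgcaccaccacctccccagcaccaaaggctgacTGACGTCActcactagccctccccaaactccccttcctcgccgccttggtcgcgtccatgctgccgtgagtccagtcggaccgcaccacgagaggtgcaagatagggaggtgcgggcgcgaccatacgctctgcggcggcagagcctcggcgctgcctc
Vamp1: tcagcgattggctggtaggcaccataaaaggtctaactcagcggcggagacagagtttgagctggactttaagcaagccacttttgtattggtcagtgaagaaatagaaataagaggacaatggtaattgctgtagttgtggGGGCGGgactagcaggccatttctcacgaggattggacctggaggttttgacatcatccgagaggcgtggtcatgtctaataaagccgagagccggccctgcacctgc
Sv2b: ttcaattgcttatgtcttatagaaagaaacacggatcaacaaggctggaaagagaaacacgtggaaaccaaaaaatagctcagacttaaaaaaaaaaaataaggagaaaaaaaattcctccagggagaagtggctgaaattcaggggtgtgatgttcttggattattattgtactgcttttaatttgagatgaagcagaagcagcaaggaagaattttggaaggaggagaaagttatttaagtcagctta

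In NeuN+ nuclei the start sites of the release machinery were less accessible in SgshKO, as were start sites over all genes. Of 79 start-site peaks of members, 41 fell (51.9%) and 4 rose (5.06%), where 44.9% of all NeuN+ start-site peaks fell and 1.74% rose (limma, Benjamini-Hochberg adjusted p under 0.05 over the whole table). With 1 peak per gene, the one nearest the start, 36 members had a peak and Unc13c had none. Among these 36, 29 fell, 2 rose and 5 did not pass the test, against 55.1% of 13395 genes that fell and 1.49% that rose. Both SgshKO libraries lay below both WT libraries at 32 members, as they did at 77.4% of all genes. The median member change was -0.78 on the log2 scale, with -0.57 as the median over all genes. These member peaks were strong, with a median percentile of 75.1 by mean tags among all NeuN+ start-site peaks and 33 of 36 above the 50th. Strong peaks had smaller errors, and the counts were not matched for strength.

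**Figure D1:**
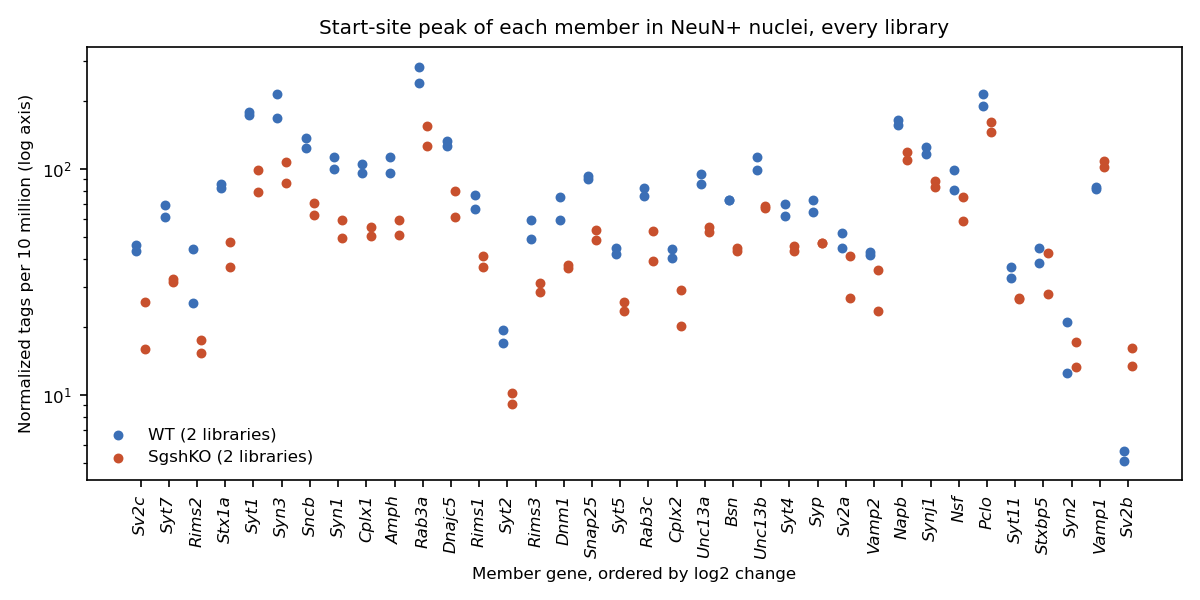
Normalized tags (per 10000000, log axis) at the start-site peak nearest the TSS of 36 members in NeuN+ nuclei, 1 point per library, with WT in blue and SgshKO in red. Genes run from the most negative log2 change (Sv2c, -1.10) to the most positive (Sv2b, 1.30), and the groups are separate at 34 genes and overlap at Stxbp5 and Syn2.

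Among the synaptotagmins, 5 of 6 start sites fell. Syt1, the sensor for fast synchronous release, held 178 and 174 normalized tags in the WT libraries and 78.9 and 99.05 in the SgshKO libraries at chr10:109010894-109011152. Both SgshKO values were below both WT values, and the fall was -0.99 ± 0.12 (log2 change ± SE, n = 2 per group, adjusted p = 1.76e-05). Syt7, a slower sensor of asynchronous release, went from 69.1 and 61.0 to 31.4 and 32.4 tags (-1.003 ± 0.17, adjusted p = 0.000356). Syt2, Syt4 and Syt5 also fell, by 0.85, 0.55 and 0.79 on the log2 scale. Syt11, a synaptotagmin that does not bind calcium, measured 32.9 and 36.7 tags in WT and 26.5 and 26.7 in SgshKO and did not pass the test (-0.37 ± 0.20, adjusted p = 0.159), although its groups did not overlap.

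Among the SNARE proteins and their regulators, 4 of 7 fell and 1 rose. Stx1a, the plasma membrane SNARE syntaxin-1A, held 86.1 and 82.5 tags in WT and 47.5 and 36.8 in SgshKO (-0.99 ± 0.16, adjusted p = 0.000241). Snap25, its plasma membrane partner, went from 92.9 and 89.8 to 53.8 and 48.3 tags (-0.83 ± 0.14, adjusted p = 0.000423), and Cplx1, a complexin, from 104.8 and 96.0 to 50.3 and 55.2 tags (-0.92 ± 0.14, adjusted p = 0.000147). At these 3 genes both SgshKO libraries were well below WT. Cplx2, the second complexin, fell by 0.77 on the log2 scale.

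Of the vesicle SNAREs, Vamp1 rose and Vamp2 did not pass the test. Vamp1 went from 83.3 and 81.9 to 109 and 102 tags at chr6:125215225-125215447, a peak centred 245 bp upstream of the start (0.35 ± 0.12, adjusted p = 0.0406). Its groups did not overlap, but the rise did not pass the test without WT replicate 1 or without WT replicate 2. Vamp2, the main vesicle SNARE of forebrain neurons, measured 41.4 and 42.9 tags in WT and 35.6 and 23.5 in SgshKO, 1 SgshKO library being close to WT (-0.53 ± 0.21, adjusted p = 0.0638). Stxbp5, the inhibitory syntaxin binder tomosyn, had overlapping groups (-0.26 ± 0.21, adjusted p = 0.349).

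Vesicle proteins showed the widest range, with 7 of 10 members lower and Sv2b higher. Rab3a, the small GTPase of synaptic vesicles, had the highest WT level of the 36 start sites, 284 and 241 tags, and measured 156 and 126 in SgshKO (-0.89 ± 0.11, adjusted p = 1.68e-05). Syn1, a synapsin that tethers vesicles to each other and to actin, went from 113 and 99.96 to 49.6 and 59.7 tags (-0.95 ± 0.14, adjusted p = 0.000132). Syn3 and Sncb (beta-synuclein) fell to 50.5% and 51.1% of WT, Rab3c to 58.4% and Syp, the vesicle membrane protein synaptophysin, to 68.2%.

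The 3 SV2 genes, which encode vesicle transporter-like glycoproteins, differed in their calls at the peak nearest a start: Sv2c fell, Sv2a did not pass the test and Sv2b rose. Sv2c fell from 45.9 and 43.5 to 25.8 and 15.9 tags, the largest fall of the 36 (-1.10 ± 0.23, adjusted p = 0.00172). Sv2a measured 44.8 and 52.0 tags in WT and 41.2 and 26.7 in SgshKO and did not pass the test (-0.53 ± 0.21, adjusted p = 0.0593). Sv2b rose from 5.10 and 5.65 to 16.1 and 13.3 tags at chr7:75302418-75302660 (1.30 ± 0.31, adjusted p = 0.00532), and its WT level was the lowest of the 36, at 9 and 10 reads. That peak lies at 1 of several annotated Sv2b starts. The other Sv2b start-site peak had a log2 change of -0.25 and was not called. Syn2 had no NeuN+ peak nearer than 521 bp, in an exon, and its groups overlapped (-0.09 ± 0.29, adjusted p = 0.82).

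All 7 active zone and priming genes with a start-site peak fell. Rims1, a scaffold that links vesicles to calcium channels, went from 77.0 and 66.6 to 41.2 and 36.8 tags (-0.86 ± 0.16, adjusted p = 0.00088), and Unc13a, the priming factor Munc13-1, from 86.1 and 94.9 to 52.4 and 55.2 (-0.74 ± 0.14, adjusted p = 0.00103). Bsn, the scaffold bassoon, fell from 73.1 and 72.9 to 44.7 and 43.2 tags (-0.72 ± 0.15, adjusted p = 0.00218). Rims2 and Rims3 fell to 47.0% and 55.0% of WT and Unc13b to 63.9%. Pclo, the related scaffold piccolo, fell least, to 76.0% of WT (-0.39 ± 0.10, adjusted p = 0.00747).

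All 6 recycling and disassembly genes fell. Dnm1, the neuronal dynamin that pinches off endocytic vesicles, went from 74.8 and 59.3 to 36.3 and 37.5 tags (-0.84 ± 0.17, adjusted p = 0.00161), and Dnajc5, the vesicle chaperone cysteine string protein, from 127 and 133 to 61.4 and 80.0 (-0.88 ± 0.14, adjusted p = 0.000166). Amph (amphiphysin) fell to 53.0% of WT. Nsf, the ATPase that disassembles SNARE complexes, its cofactor Napb and the lipid phosphatase Synj1 fell to 74.2%, 71.0% and 70.9%. At Nsf the 2 closest libraries of different genotype were 80.8 tags in WT and 74.9 in SgshKO (-0.43 ± 0.15, adjusted p = 0.0424).

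How many start sites were called depended on the scaling and on single libraries. When tags in peaks were set equal between libraries, 19 of the 36 members fell and 2 rose, and after quantile normalization 5 fell (Syt1, Syt7, Stx1a, Sv2c and Cplx1) while Vamp1 and Sv2b still rose. DESeq2 called 9 of the 36 lower, and neither rise passed (adjusted p = 0.0701 at Vamp1 and 0.102 at Sv2b). Over all NeuN+ peaks the median log2 change was 0.05 with equal tags in peaks, -0.08 after quantile normalization and -0.02 by DESeq2. With the deposited scaling it was -0.23. Shares of all genes called under other settings are not given, so these counts do not set members against all genes. With quantile normalization Pclo, Nsf, Synj1, Napb and Stxbp5 had a log2 change above 0, and with equal tags in peaks Stxbp5 and Syn2 did. Without WT replicate 1 or without WT replicate 2, 18 and 20 of the 36 fell. Without SgshKO replicate 1 or without SgshKO replicate 2, limma called 0 NeuN+ start-site peaks of any gene, while 40 and 40 of the members' 79 start-site peaks were lower at an unadjusted p under 0.05.

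Start-site peaks of neuronal, oligodendrocyte-lineage, astrocyte and endothelial markers in NeuN+ nuclei were lower in SgshKO as well. Summed start-site tags in SgshKO were 0.576 times WT for the 8 neuronal markers (937 and 902 against 507 and 552 tags), 0.522 times for the 4 oligodendrocyte-lineage markers with a peak, 0.73 times for 3 astrocyte markers and 0.627 times for 2 endothelial markers, with no overlap of the groups. In a bulk sort, fewer nuclei of a type and less signal per nucleus cannot be told apart, and the part of cell composition in the members' changes was not tested. The other 65 genes of a wider release list, among them the vesicular transporters and further synaptotagmins, were counted the same way: of 58 with a NeuN+ start-site peak, 40 fell and 0 rose at the nearest one (median log2 change -0.74), where 55.1% of all genes fell. Over all 121 start-site peaks of that list 58 fell (47.9%, where 44.9% of all start-site peaks did) and limma called 0 higher, with 2 higher at an unadjusted p under 0.05, 3 by edgeR and 0 by DESeq2.

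The 4 start-site peaks of members that rose in NeuN+ nuclei were Vamp1, Sv2b and a pair of weak upstream peaks at genes whose nearest peak fell. Napb held 3.40 and 1.69 tags in WT and 14.7 and 16.5 in SgshKO at 762 bp upstream (2.27 ± 0.36, adjusted p = 0.000211), or 6 and 3 reads against 21 and 26. Synj1 held 1.13 and 3.95 tags in WT and 6.98 and 8.89 in SgshKO at 725 bp upstream (1.45 ± 0.43, adjusted p = 0.0176). In both, every SgshKO library was above every WT library, while the Napb and Synj1 peaks at the start itself moved the other way. These upstream peaks were chosen after their values were seen.

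RefSeq promoter windows were matched for 29 of 37 members (37 windows), and 26 of these genes had a window over their NeuN+ start-site peak. The members' windows were richer in G and C than all windows, with a median of 59.6% against 52.4%, and a median of 13 CpG dinucleotides against 6. All windows include genes without a NeuN+ start-site peak, so these contrasts and the motif shares are not against open promoters. Of 8951 genes with a window over such a peak, 875 were under 50% G and C, 3074 from 50% to 60%, 3327 from 60% to 70% and 1675 above. The 26 members split similarly, into 2, 10, 10 and 4. The GC box GGGCGG, the binding motif of SP family factors, was in 22 of the 37 windows (59.5%, against 32.7% of all 32851 windows), the CCAAT box (CCAAT) in 24.3% against 33.8%, and TATAAA in 5.41% against 12.4%, each counted on both strands. TGACGTCA was found in 1 member window, that of Syn1 printed above, and in 1.55% of all windows. The Sv2b window printed above stood apart, with 35.2% G and C and 2 CpG dinucleotides, while those of Syt1, Stx1a and Syn1 held 56.4%, 62.0% and 68.0%. Windows at other Sv2b starts held 32.8%, 47.2% and 48.8%.

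Over all genes, NeuN+ start sites with more G and C had the more negative change: the median log2 change was -0.22 for windows under 50% G and C, -0.43 from 50% to 60%, -0.64 from 60% to 70% and -0.74 above. Members followed this only in part. The 10 members from 50% to 60% had a median of -0.84 and the 4 above 70% a median of -0.61. Across the 26 members Pearson's r between G and C content and log2 change was -0.53, but it was -0.13 without Sv2b, against -0.42 over 8951 genes; the points share the same 4 libraries, and these values are descriptions without a test.

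**Figure D2:**
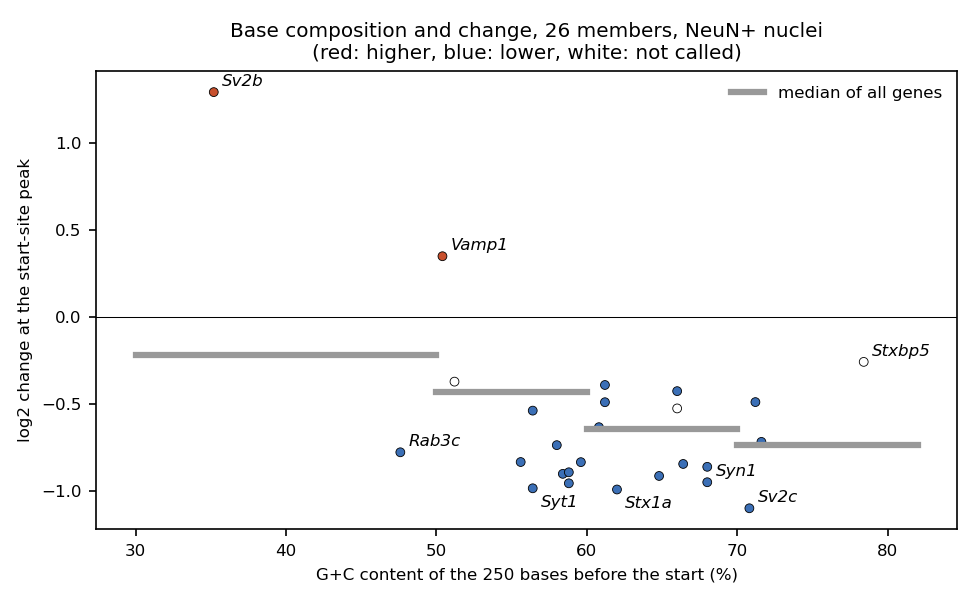
G and C content of the 250 bases before the start (%) against the log2 change of the NeuN+ start-site peak for 26 members; points are red where called higher, blue where called lower and white where not called, and grey bars are medians of all genes in 4 ranges of content. Sv2b (35.2%) and Vamp1 (50.4%) are the 2 members above 0, and most others lie between -0.4 and -1.1 at 55 to 72% G and C.

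The distal peaks of members in NeuN+ nuclei moved in both directions. Of 373, 52 fell and 39 rose, where 12.6% of all distal peaks fell and 12.6% rose, and the median log2 change was -0.17 against -0.11 over all distal peaks. Direction went with distance from the start site: within 10 kb 18 of 121 fell and 5 rose, and beyond 100 kb 1 of 45 fell and 14 rose. Peaks beyond 100 kb include some in introns of the gene itself, as at Rims1 and Amph. All NeuN+ peaks showed the same arrangement, with 4302 lower and 1579 higher of 25392 within 10 kb and 809 lower and 3505 higher of 13340 beyond 100 kb. The split moved with the scaling: with equal tags in peaks 21 fell and 76 rose, and by edgeR 29 fell and 68 rose. The median log2 change over all NeuN+ peaks moved as well, from -0.23 to 0.05 with equal tags in peaks and to -0.03 by edgeR. The 12.6% shares belong to the deposited scaling, so the counts under other settings do not set members against all distal peaks. Without WT replicate 1, 11 fell and 18 rose, without WT replicate 2, 14 fell and 17 rose, and without SgshKO replicate 1 or 2 limma called 0, with 67 and 68 lower and 41 and 43 higher at an unadjusted p under 0.05.

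Genes differed in the direction of their distal peaks. Syt1 had 18 distal peaks, of which 8 rose and 16 had a log2 change above 0 (median 0.71), so its distal peaks and its start site moved oppositely. One of them, 95038 bp upstream at chr10:109105897-109106129, went from 11.9 and 9.04 to 25.8 and 18.4 tags (1.00 ± 0.28, adjusted p = 0.0115). Of the 8 distal peaks of Pclo, 4 rose, among them a peak 6196 bp upstream that went from 13.6 and 15.8 to 34.9 and 26.03 tags (0.99 ± 0.24, adjusted p = 0.00528). Under every scaling tried the median distal change was above 0.7 at Syt1 and above 0.8 at Pclo, but without WT replicate 1 only 1 Syt1 peak and without WT replicate 2 only 2 rose. DESeq2 called 0 of the 18 at Syt1, where limma called 8 and edgeR 12. At Pclo 2 of the 8 rose by DESeq2 and 2 without WT replicate 1.

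Syt7 was the opposite case. Of its 28 distal peaks 11 fell and 24 had a log2 change below 0 (median -0.57), and all 11 lay in introns within 34 kb of the start. The strongest of them, 9389 bp into the gene at chr19:10398366-10398593, held 162 and 138 tags in WT and 89.3 and 79.4 in SgshKO (-0.82 ± 0.12, adjusted p = 0.000114), more than the Syt7 start site itself. That peak was singled out after its values were seen. Among peaks with at least the median tags of all NeuN+ peaks (12.1), the largest Syt7 fall was 16403 bp into the gene, in intron 1. It went from 26.6 and 25.4 to 11.9 and 8.89 tags (-1.26 ± 0.26, adjusted p = 0.00169). With equal tags in peaks 7 of the 28 fell and 2 rose; without WT replicate 1 or 2, 2 and 3 fell, and by DESeq2 1 did.

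Cplx2 had the most NeuN+ peaks of any member, with 34 distal peaks of which 6 fell and 1 rose. The clearest was in intron 1, 1521 bp past the start, at 65.1 and 58.7 tags in WT and 27.9 and 28.6 in SgshKO (-1.10 ± 0.18, adjusted p = 0.000199). With equal tags in peaks, 2 of the 34 fell and 6 rose, so the balance at Cplx2 turned with the scaling. At Snap25 5 of 23 distal peaks rose and 3 fell, at Amph 6 of 20 rose and 1 fell, at Rims1 4 of 13 rose and 2 fell, and at Dnm1 4 of 15 fell. The falls at Snap25 and Amph were called only with the deposited scaling: with in-peak, median-of-ratios or quantile scaling, by edgeR and by DESeq2, no fall passed at either gene. Without WT replicate 1 or 2, 1 and 0 peaks rose at Snap25, 3 and 1 at Amph and 2 and 1 at Rims1. DESeq2 called 1 rise at each of these 3 genes and no fall at Rims1. At Dnm1 no fall passed by DESeq2 or after quantile normalization, and 1 did with equal tags in peaks.

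Other distal falls included Unc13c, the member without a start-site peak. A peak 35462 bp upstream of Unc13c went from 28.3 and 19.8 to 8.38 and 6.98 tags (-1.51 ± 0.28, adjusted p = 0.000841), both SgshKO libraries being under the lower WT one. Within Rims1 the direction differed by position: 272638 bp into the gene a peak fell from 32.3 and 36.1 to 16.1 and 15.2 tags (-1.08 ± 0.22, adjusted p = 0.00169), while 149868 bp in, another rose from 12.5 and 5.08 to 19.5 and 17.1 (1.09 ± 0.34, adjusted p = 0.0214). Stx1a intron 3 and Rab3a intron 4 fell to 50.8% and 52.8% of WT, and an Sv2b intron 1 peak, an Amph intron 9 peak and an upstream Syn3 peak rose 2.03-fold, 1.94-fold and 2.56-fold.

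**Figure D3:**
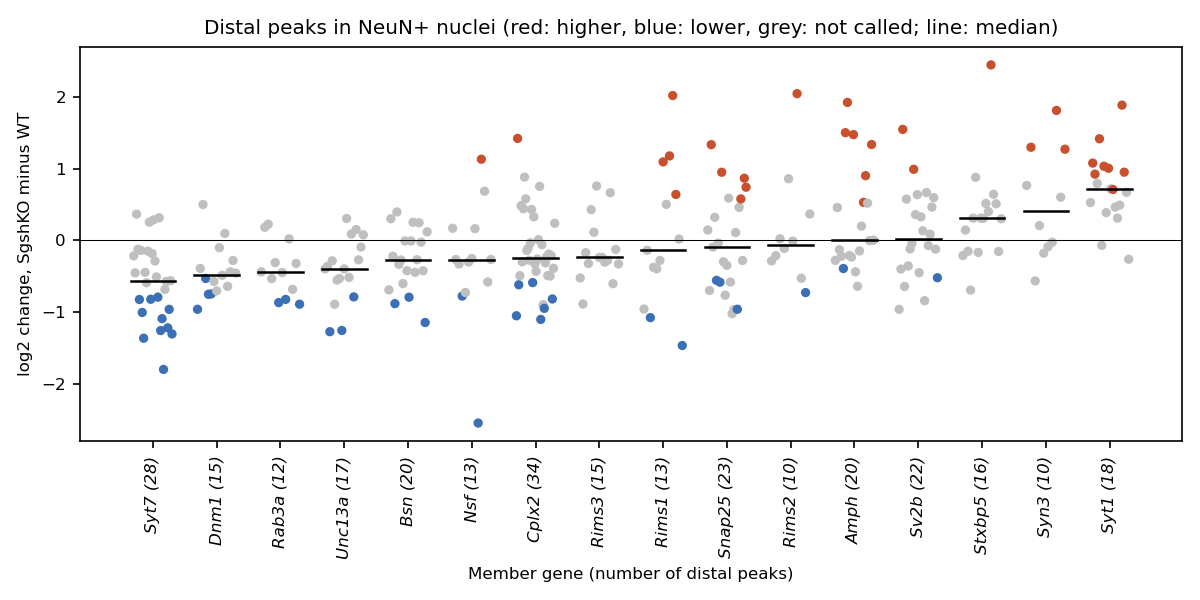
log2 change of each distal NeuN+ peak for the 16 members with at least 10, in genome order within a gene, coloured red where called higher, blue where called lower and grey where not called, with the gene's median as a line. Syt7 lies lowest (median -0.57) and Syt1 highest (0.71), and with this scaling both rises and falls are called at Snap25, Rims1 and Amph.

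In Olig2+ nuclei the release machinery had fewer peaks and few changes at start sites. Of 47 start-site peaks 4 rose and 3 fell, where 12.7% of all Olig2+ start-site peaks rose and 7.56% fell, and the median member change was 0.08. Of 30 members with a start-site peak, Rims3, Synj1 and Nsf rose and Rims2 and Sv2a fell at the nearest one, where 16.0% of all genes rose and 7.7% fell. Rims2 and Synj1 each had another start-site peak called the other way. Of the 4 Rims2 start-site peaks 1 rose, and of the 2 Synj1 ones the farther fell (-1.16). Rims2 went from 21.3 and 23.5 to 7.99 and 13.3 tags (-1.04 ± 0.28, adjusted p = 0.00991) and Rims3 from 13.5 and 13.8 to 24.6 and 22.6 (0.75 ± 0.26, adjusted p = 0.037). Sv2a fell from 61.7 and 57.8 to 35.7 and 40.6 tags (-0.64 ± 0.17, adjusted p = 0.00958) and Nsf rose from 86.1 and 97.2 to 116 and 139 (0.47 ± 0.13, adjusted p = 0.00974).

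At these 4 genes the Olig2+ groups did not overlap, and 25 of the 30 members did not pass the test. Syt1 held 10.9 and 13.8 tags in WT and 12.3 and 10.6 in SgshKO, Snap25 6.22 and 8.69 against 9.22 and 7.31, and Stx1a 32.2 and 30.2 against 38.7 and 27.9, all with overlapping groups. Rab3a, the strongest Olig2+ start site among the members, measured 255 and 237 tags in WT and 253 and 235 in SgshKO (-0.01 ± 0.09, adjusted p = 0.94). Without WT replicate 1, 0 of the 47 were called (10 at an unadjusted p under 0.05), and without WT replicate 2, 2 were; edgeR called 8 and DESeq2 2.

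Of 75 distal Olig2+ peaks of members 18 were called, 11 lower and 7 higher, where 19.7% of all distal Olig2+ peaks were called in either direction and 6.69% were higher. A peak 10.9 kb upstream of Bsn fell from 99.1 and 113 to 50.4 and 59.2 tags (-0.94 ± 0.15, adjusted p = 2.59e-05), and one 92060 bp upstream of Amph from 72.6 and 73.1 to 40.6 and 44.5 (-0.76 ± 0.16, adjusted p = 0.00115). The Amph peak is annotated in an intron of another transcript and carries the Amph name by its nearest start. Unc13b intron 7 rose from 20.8 and 28.6 to 46.1 and 40.6 tags (0.80 ± 0.21, adjusted p = 0.00749), and a peak 1359 bp upstream of Rab3a from 11.9 and 11.3 to 21.5 and 23.9 (0.91 ± 0.26, adjusted p = 0.015). Without WT replicate 1, 4 of the 75 were called and without WT replicate 2, 7. Summed oligodendrocyte-lineage marker tags were 0.86 times WT in SgshKO the 4 neuronal markers with a peak 1.1 times and 2 endothelial markers 1.32 times, each without overlap of the groups; their part in these changes was not tested.

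In microglia no member peak fell and 8 rose. Of 33 start-site peaks 4 rose, where 8.59% of all microglial start-site peaks rose and 1.2% fell, and of 101 distal peaks 4 rose, where 3.81% rose and 2.69% fell. At an unadjusted p under 0.05 limma had 3 start-site and 6 distal peaks lower, edgeR called 2 and 0 lower after adjustment, and DESeq2 0 and 0. The risen start sites were 3 of the 23 nearest ones, where 12.7% of all genes rose and 0.929% fell, plus a peak 994 bp into Unc13a. Rab3a, at 640 and 610 tags in WT the strongest member peak of that sort, rose to 1512 and 999 (0.97 ± 0.24, adjusted p = 0.00836), Dnajc5 went from 187 and 183 to 402 and 370 (1.06 ± 0.26, adjusted p = 0.00864), and Stx1a from 109 and 94.0 to 284 and 179 (1.15 ± 0.29, adjusted p = 0.0112).

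At these 3 genes every microglial SgshKO library was above every WT library, the reverse of NeuN+ nuclei. All 3 kept the call when tags in peaks were set equal, a scaling under which the nearest start sites of Syt7, Rims2 and Bsn fell. The microglial Rims2 peak lies 883 bp into an intron at chr15:39199060-39199278, at a different start from the NeuN+ and Olig2+ Rims2 peaks. The microglial Syt2 peak is likewise at a different start from the NeuN+ peak. After quantile normalization Rab3a lost its call (0.29, adjusted p = 0.215), while Stx1a and Dnajc5 kept theirs. With the scaling as deposited, limma called 0 of the 33 start-site peaks without WT replicate 1 (6 at an unadjusted p under 0.05) and 0 without WT replicate 2 (5). Without SgshKO replicate 1, 7 of the 33 start-site and 14 of the 101 distal peaks were called, and without SgshKO replicate 2, 15 distal ones. The share of tags in peaks was 55.8 and 48.7% in WT and 67.4 and 53.7% in SgshKO. Syt2, Syt7 and Bsn, at 72.9%, 69.4% and 38.0% of WT, did not pass the test.

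**Figure D4:**
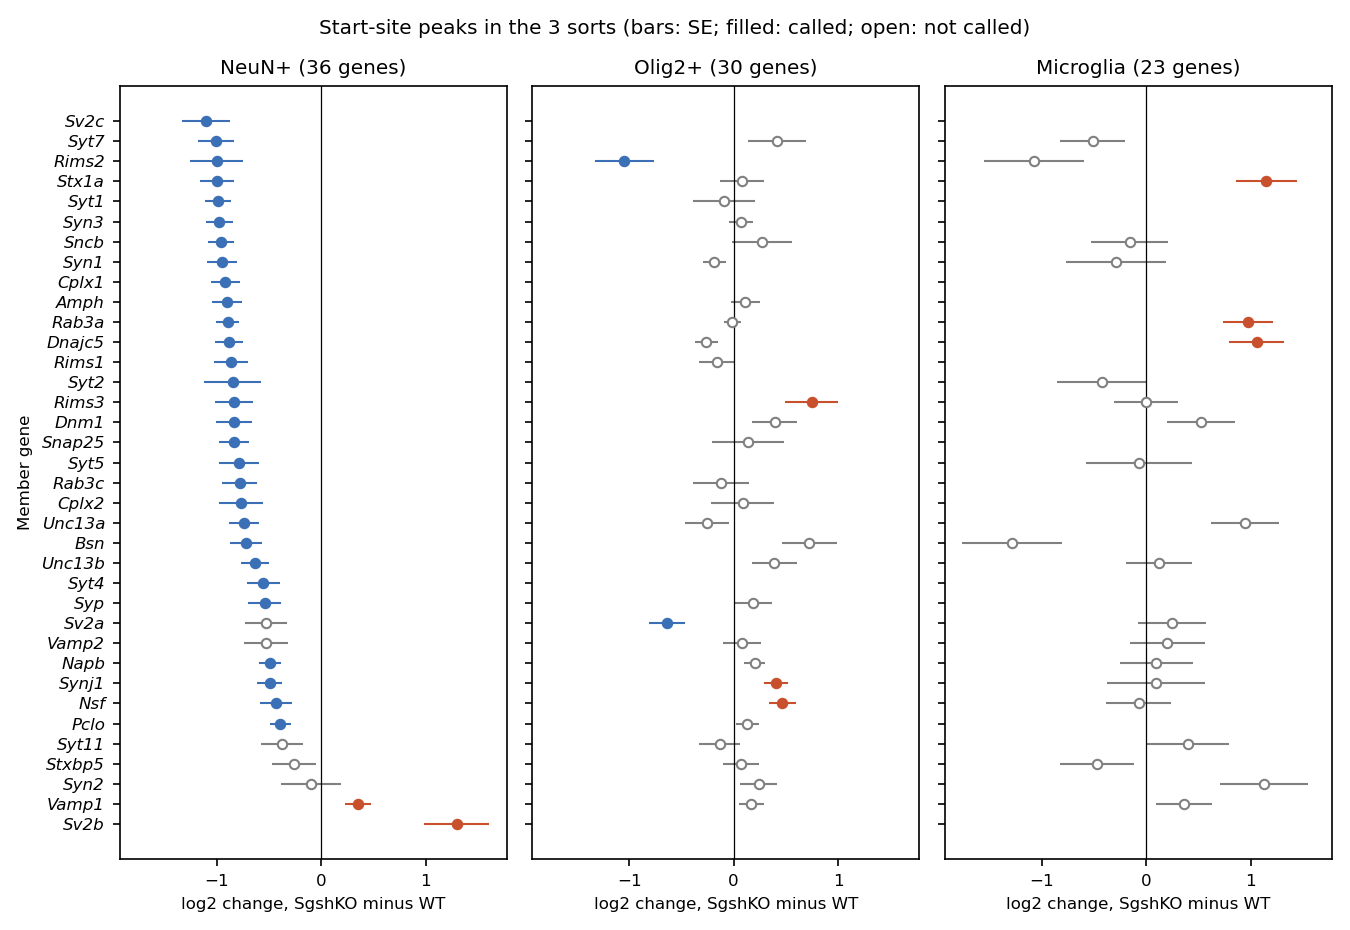
log2 change (SgshKO minus WT, bars SE) of the start-site peak nearest the TSS for members in NeuN+ nuclei, Olig2+ nuclei and microglia, with filled points called and open points not called. In NeuN+ nuclei 29 of 36 points are filled below 0, in Olig2+ nuclei 5 of 30 points are filled, and in microglia Stx1a, Rab3a and Dnajc5 are filled above 0. The peak of a gene can lie at different starts in different sorts, as for Rims2, Syt2 and Syn2.

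The largest microglial change of any member peak was inside Unc13a. A peak in intron 3, 6073 bp past the start at chr8:71665561-71665807, went from 11.2 and 23.7 to 121 and 174 tags, 8.43-fold (3.07 ± 0.37, adjusted p = 7.11e-07), or from 13 and 28 reads to 140 and 187. Its neighbour 5824 bp past the start rose 3.30-fold (adjusted p = 0.00324) and the peak 994 bp into intron 1 rose 2.77-fold, from 18.2 and 21.2 to 49.4 and 59.4 tags. The 5824 bp and 994 bp peaks were singled out after their values were seen. The microglial Unc13a start site itself measured 55.3 and 47.4 tags in WT and 93.5 and 106 in SgshKO without passing the test (0.94 ± 0.32, adjusted p = 0.0669). The 6073 bp peak kept its call in each alternative run, with log2 changes of 2.56 to 3.58, while the neighbour lost it without WT replicate 1 (adjusted p = 0.265) or 2 (0.0887). The peak 994 bp into the gene lost it likewise (0.401 and 0.383).

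In NeuN+ nuclei the overlapping Unc13a intron 3 peak, 6114 bp past the start, measured 21.5 and 18.1 tags in WT and 18.9 and 11.4 in SgshKO with overlapping groups (-0.40 ± 0.27), and the Olig2+ table lists no peak there. The 3 microglial neuronal markers with a start-site peak were lower in SgshKO (0.679 times WT) with Rbfox3, Map2, Nefl, Nefm and Stmn2 without a peak, and the microglial marker sum overlapped between groups (1.05 times). The 5 oligodendrocyte-lineage markers with a peak there summed to 340 and 308 tags in WT and 418 and 357 in SgshKO (1.2 times, no overlap), and the part of these markers in the members' rises was not tested.

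A distal element upstream of Bsn was shared by the 3 sorts and moved in opposite directions. In NeuN+ nuclei it held 229 and 220 tags in WT and 117 and 142 in SgshKO at chr9:108201172-108201436 (-0.79 ± 0.10, adjusted p = 3.61e-05), more than the Bsn start site. In Olig2+ nuclei it fell by 0.94 on the log2 scale, and in microglia it rose from 216 and 193 to 380 and 389 tags (0.91 ± 0.26, adjusted p = 0.0248). It was singled out after its values were seen. The microglial rise at this Bsn element did not pass the test without WT replicate 1 (adjusted p = 0.36), without WT replicate 2 (0.669) or after quantile normalization (0.0826). The NeuN+ fall did not pass without SgshKO replicate 1 (0.126), without SgshKO replicate 2 (0.129) or after quantile normalization (0.163).

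**Figure D5:**
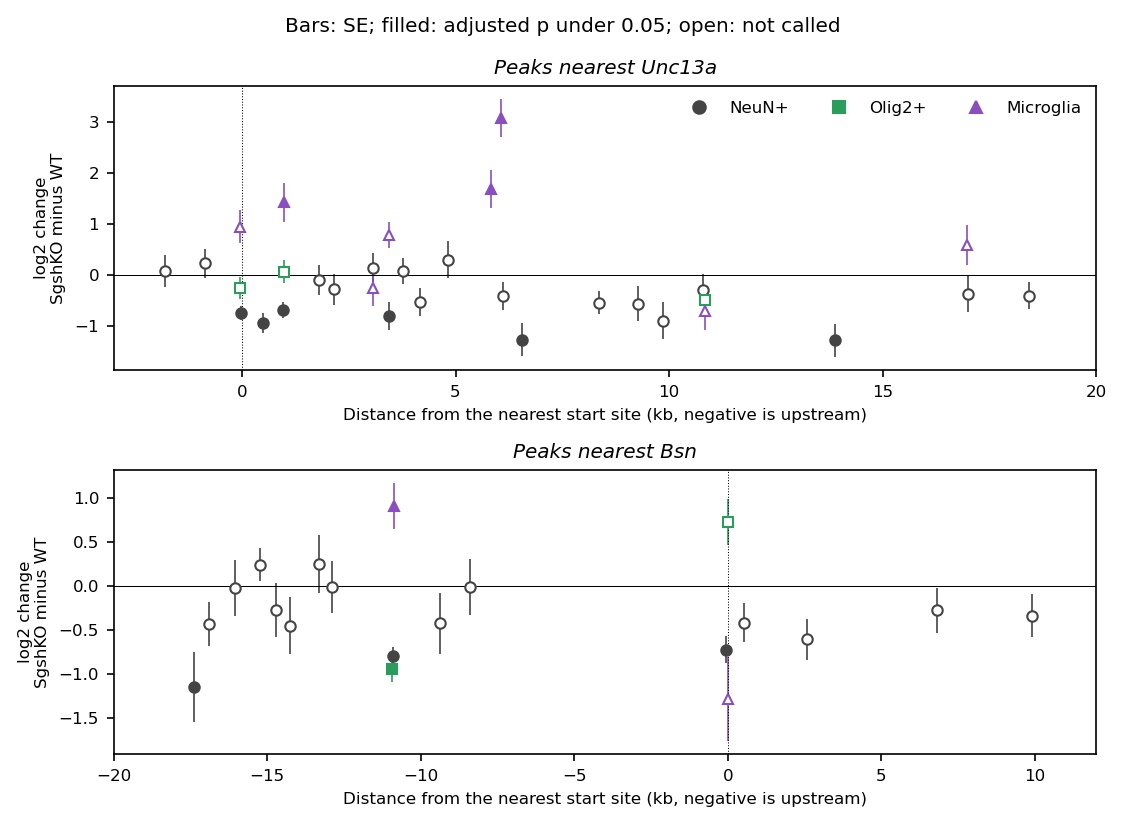
log2 change (bars SE) of peaks against distance from the start site (kb) at Unc13a (top) and Bsn (bottom), with circles for NeuN+ nuclei, squares for Olig2+ nuclei and triangles for microglia, filled where called. The microglial peaks about 6 kb into Unc13a stand at 3.07 and 1.69, and the element about 10.9 kb upstream of Bsn is at 0.91 in microglia and at -0.79 and -0.94 in the other sorts.

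Whether the genotype effect differed between sorts was tested in 1 model of the 12 libraries over 17400 peaks matched across the tables. Each peak had 1 estimate of spread for all sorts, although libraries of a group differed more in microglia than in NeuN+ nuclei. Errors of the differences from microglia may thus be too small. The SE of that difference was 0.217 at Napb and 0.205 at Dnajc5, against 0.351 and 0.261 for the microglial change alone. At Stx1a it was the larger, 0.307 against 0.293. Of 17 matched start-site peaks of 15 members, the change was more negative in NeuN+ than in Olig2+ nuclei at 11, where 41.2% of all matched start-site peaks were more negative and 0.567% more positive. The difference was -1.58 ± 0.31 at Rims3 (adjusted p = 0.000762), -1.44 ± 0.39 at Bsn (adjusted p = 0.00768), -1.23 ± 0.32 at Dnm1 (adjusted p = 0.00641) and -1.07 ± 0.31 at Stx1a (adjusted p = 0.0108). At Sv2a, with log2 changes of -0.53 and -0.64, it was 0.11 ± 0.31 (adjusted p = 0.819), and at Vamp2, Syn1, Stxbp5 and both Unc13a peaks it did not pass the test. With equal tags in peaks 4 of the 17 differed, after quantile normalization 3, and without NeuN+ WT replicate 1, 6.

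Against microglia, the NeuN+ change was more negative at 10 of the 17 member peaks, where 54.5% of all matched start-site peaks were more negative and 0.915% more positive. The largest differences were at Stx1a (-2.14 ± 0.31, adjusted p = 4.72e-06), the peak 969 bp into Unc13a (-2.10 ± 0.32, adjusted p = 1.22e-05), Dnajc5 (-1.94 ± 0.20, adjusted p = 7.01e-08) and Rab3a (-1.87 ± 0.22, adjusted p = 3.15e-07). The other 7 did not pass this test: Nsf, Syn1, Vamp2 and Sncb were below 0, and Bsn (0.56, adjusted p = 0.269), Stxbp5 (0.21, adjusted p = 0.645) and the peak 428 bp into Rab3a (0.06, adjusted p = 0.927) were above it. With equal tags in peaks or after quantile normalization 6 of the 17 differed, and without NeuN+ WT replicate 1, 6. Of 12 matched distal peaks of members, 3 differed from Olig2+ nuclei, where 12.8% of all were more negative and 1.55% more positive, and 3 from microglia, where 16.6% and 3.15% were; among them was the Bsn element, with a NeuN+ minus microglia difference of -1.70 ± 0.21 (adjusted p = 5.19e-07).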

How the data were processed

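ATAC-seq gave accessibility in 12 libraries, 2 for each genotype and sort. The authors deposited 1 table of annotated peaks per sort, and per the file headers the signal in each library is the number of tags per peak, normalized so that the library total is 10000000. The authors' Peak Score, a deposited score from 540 to 1000, served only as a filter. Bowtie2, HOMER and the build mm10 are named in the submitters' processing notes; peak positions are as deposited. Dividing out the scaling gave whole reads for 100% of values within 0.01 of a read.

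The main test was limma (3.58.1, R 4.3.3) with an intensity trend on log2(tags + 1), over all peaks of a table, Benjamini-Hochberg adjusted over that table, called at an adjusted p under 0.05. Fold changes are ratios of mean tags; log2 changes are on the log2(tags + 1) scale, which understates changes of low peaks. Differences between sorts were interaction contrasts over peaks matched one to one in the 3 tables by 50% reciprocal overlap. The alternatives tried were a pseudocount of 0.5 or 5, a filter on the lowest 25% of peaks, in-peak, median-of-ratios and quantile scaling, edgeR 4.0.16 and DESeq2 1.42.0 on the recovered reads, a replicate block, the highest Peak Score only, start sites within 500 bp, 25% overlap, and leaving out each library. As a check of the code, the fits were also run on simulated counts with a common dispersion for all peaks of a sort. Spread differed between groups in the data, so that run does not bear on the calls reported. Promoter windows came from RefSeq (GRCm38.p6).

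The text names 15 members chosen by role, the 6 lowest and 6 highest NeuN+ start sites, and the member with most NeuN+ peaks. It also names up to 6 distal NeuN+ peaks each way and up to 3 each way in the other sorts. Other peaks fill out a group of members, stand in counts or were singled out after their values were seen. The members, lists and tests were chosen with earlier results of these data known. All 12 tag columns matched a sample. The labels do not say whether the replicate numbers pair libraries, so the main test used no pairing. Library totals are given with the results.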

Additional observations from a re-analysis of the deposited data

Results flagged for a closer look

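The genotype effect at 14 member peaks differed between NeuN+ and Olig2+ nuclei, and at 13 between NeuN+ nuclei and microglia, by limma interaction contrasts at a Benjamini-Hochberg adjusted p under 0.05. Each contrast covered 17 start-site and 12 distal member peaks. Against Olig2+ nuclei, 41.2% of all matched start-site and 12.8% of all matched distal peaks were more negative in NeuN+ nuclei, and 0.567% and 1.55% more positive. Against microglia 54.5% and 16.6% were more negative, and 0.915% and 3.15% more positive. Values are differences of log2 changes, NeuN+ minus the other sort, with 2 libraries per group and sort, and both contrasts share the NeuN+ libraries. All sorts shared 1 estimate of spread per peak, so errors of the differences from microglia may be too small. Against Olig2+ nuclei the start-site differences were Nsf (-0.89), Sncb (-1.23), Napb (-0.69), Dnajc5 (-0.62), Dnm1 (-1.23), Unc13b (-1.02), Rims3 (-1.58), Stx1a (-1.07), Rab3a at -54 bp (-0.88), Rab3a at 428 bp (-1.32) and Bsn (-1.44). The distal differences were Stxbp5 (0.70), Snap25 (-1.25) and Rab3a (-1.74); the Stxbp5 peak, 1069 bp upstream, was the 1 peak with a more positive change in NeuN+ nuclei. Against microglia the start-site differences were Napb (-0.59), Dnajc5 (-1.94), Dnm1 (-1.36), Sv2a (-0.77), Unc13b (-0.76), Rims3 (-0.83), Stx1a (-2.14), Rab3a at -54 bp (-1.87), Unc13a at -32 bp (-1.68) and Unc13a at 969 bp (-2.10), and the distal ones Sncb (-1.20), Rab3a (-1.49) and Bsn (-1.70). With in-peak scaling 12 of these 27 differences, and with quantile normalization 13, no longer passed the test, and none changed sign. In NeuN+ nuclei the summed start-site tags of neuronal markers were 0.576 times WT, and the share of tags in peaks also differed by genotype there; the part of either in these differences was not tested.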

How the results depend on the processing

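With 2 libraries per group and a median of 17 to 39 reads per peak, single weak peaks have wide errors. Counts under other settings stand without the share of all peaks called there, so they do not set members against all peaks. NeuN+ start-site members called lower numbered 41, and 24 with in-peak scaling, 27 with median-of-ratios scaling, 9 with quantile normalization, 10 by DESeq2 and 0 to 24 when 1 library was left out. Those called higher numbered 4, and 1 by DESeq2, 2 within 500 bp and 0 to 3 with a library left out. NeuN+ distal members called lower numbered 52, and 21, 25 and 15 under the same scalings, 29 by edgeR, 3 by DESeq2 and 0 to 14 with a library left out. Distal members called higher numbered 39, and 23 without the lowest 25% of peaks, 76 and 62 with in-peak and median-of-ratios scaling, 68 by edgeR, 10 by DESeq2, 25 with the highest Peak Score and 0 to 18 with a library left out. Olig2+ calls fell from 7 to 2 at start sites and from 18 to 2 at distal peaks by DESeq2, and ranged from 0 to 5 and from 4 to 15 with a library left out. Microglial start-site calls went from 4 to 8 with in-peak scaling, 8 by edgeR and 8 with a replicate block, and 0 to 7 with a library left out; distal calls went from 4 to 12 with in-peak scaling, 10 with median-of-ratios scaling, 9 with quantile normalization, 11 by edgeR, 13 with a replicate block and 1 to 15 with a library left out. Members differing from Olig2+ nuclei went from 11 to 4 with in-peak scaling, 3 with quantile normalization and 6 to 9 with a library left out, and those differing from microglia from 10 to 6, 6 and 6 to 12. Peak by peak, same-numbered libraries did not deviate together (correlations 0.0036, 0.0007 and 0.042 in NeuN+, Olig2+ and microglia). These correlations do not see a shift of a whole library, so whether the numbers pair libraries is not known. The replicate block changed no other count by over 1.5 times (44 NeuN+ start-site members lower). Some log2 changes of named start-site peaks crossed 0; of these Nsf, Pclo, Synj1 and Napb in NeuN+ nuclei had passed the test. Quantile normalization put NeuN+ Nsf at 0.0678, Pclo at 0.177, Synj1 at 0.0505, Napb at 0.0728 and Stxbp5 at 0.0134. In-peak scaling put NeuN+ Stxbp5 at 0.0327, and with 1 library left out it ranged from -0.554 to 0.0364. NeuN+ Syn2 was at 0.186 with in-peak scaling, 0.109 with median-of-ratios scaling, 0.0885 by edgeR and 0.0856 by DESeq2, and ranged from -0.445 to 0.257 with a library left out. Olig2+ Rab3a was at 0.00814, 0.0565, 0.0574 and 0.0581 under these 4 settings, and ranged from -0.0653 to 0.0424. With a library left out, Olig2+ Syt1 ranged from -0.251 to 0.0655, Snap25 from -0.0724 to 0.352, Vamp2 from -0.173 to 0.333 and Stx1a from -0.153 to 0.305, and microglial Vamp2 from -0.214 to 0.614 (-0.00281 with in-peak scaling), Syn1 from -0.762 to 0.186 and Nsf from -0.392 to 0.245. The cause of these changes was not tested. DESeq2 lost 25 of the 44 called named peaks for which it gave an adjusted p. Of all 45, quantile normalization lost 14, each missing SgshKO library 35, and pseudocounts of 0.5 and 5 lost 0.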
